A study of Mus musculus with 2 samples.

Results

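The genes of cytotoxic lymphocytes, 5 effectors and 5 lineage genes, were read on arrays of 2 macrophage populations sorted from mouse hearts. The effectors were Gzma, Gzmb, Prf1, Ifng and Nkg7, and the lineage genes were Ncr1, Eomes, Tbx21, Il2rb and Cd7. These 10 genes, of 19505 genes with a value, were selected by name with the results of these arrays already known, so that their values are a description and carry no test. Each had 1 probe set.

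Hearts of wild-type male C57BL/6 mice, 10 weeks old, had undergone ischemia-reperfusion (IR), in which blood flow through a coronary artery is stopped and then restored. Cells inside a CD45+CD11b+ gate were sorted into MHCII+ macrophages and MerTK- macrophages, and the RNA of each population went onto 1 Clariom S array, a platform that reads gene transcripts with sets of short probes. MerTK is a receptor for dying cells, and MHCII presents antigen to T cells. According to the methods, each array took a pool of cells from several hearts. The sources used here do not state how long after IR the cells were taken.

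Cytotoxic lymphocytes, which are natural killer (NK) cells and killer T cells, destroy target cells with granules that hold perforin, which opens the target's membrane, and granzymes, the proteases that enter through it. They also secrete interferon-gamma, which activates macrophages. T-bet (Tbx21) and Eomes are the transcription factors that set this program, and IL-15, read through the receptor chain encoded by Il2rb, keeps NK cells alive. Mature NK cells of the mouse carry CD11b, the marker of the gate used here.

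The values are log2 intensities as deposited, and a difference is the value in MHCII+ minus that in MerTK- macrophages, so that a negative difference means a higher value in MerTK- macrophages. With 1 array per population the spread between replicates is unknown for every difference. For each array a floor was taken from 1450 probe sets for olfactory, vomeronasal and taste receptors as their 95th percentile, and lay at 4.23 for MHCII+ and 4.67 for MerTK-. A gene whose higher value passed that array's floor was taken as above the floor, and 10518 genes were. A fold written as "at least" was taken against the floor, because the lower value lay under it.

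The sort labels could be read in the data. The Mertk value was 8.77 in MHCII+ and 5.97 in MerTK- macrophages, and H2-Aa, a chain of MHCII, had 16.71 and 8.39. A fold of 2 or more towards MerTK- was seen for 724 (6.88%) of the genes above the floor and towards MHCII+ for 1407 (13.4%), and with lower values raised to the floor these were 631 (6.00%) and 1243 (11.8%). The split moved with the scaling: 1005 and 1043 after centring on the median gene, 958 and 1073 after quantile normalization, 1756 and 604 after centring on housekeeping genes, and 70 and 5777 after centring on the 4 hybridization controls, transcripts added to every array, whose median difference was -0.93. Under the last of these a deposited difference between -0.93 and 0 takes the other sign. All 14 measured markers of resident cardiac macrophages were above the floor.

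All 5 effectors were higher in MerTK- macrophages and above the floor there, whereas of the lineage genes only Ncr1 was. As deposited, the 5 effectors were each 2-fold or more higher on the MerTK- array, and 4 of them remained so against the floor. Of the lineage genes, 1 of 5 was above the floor and 2-fold or more higher on the MerTK- array, and none was 2-fold or more higher on the MHCII+ array among those above the floor. The members' choice used these values, so nothing is read from these counts against the 6.88% of all genes. In bulk RNA of this kind, fewer cells of a type and less RNA per cell cannot be told apart.

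**Figure D1:**
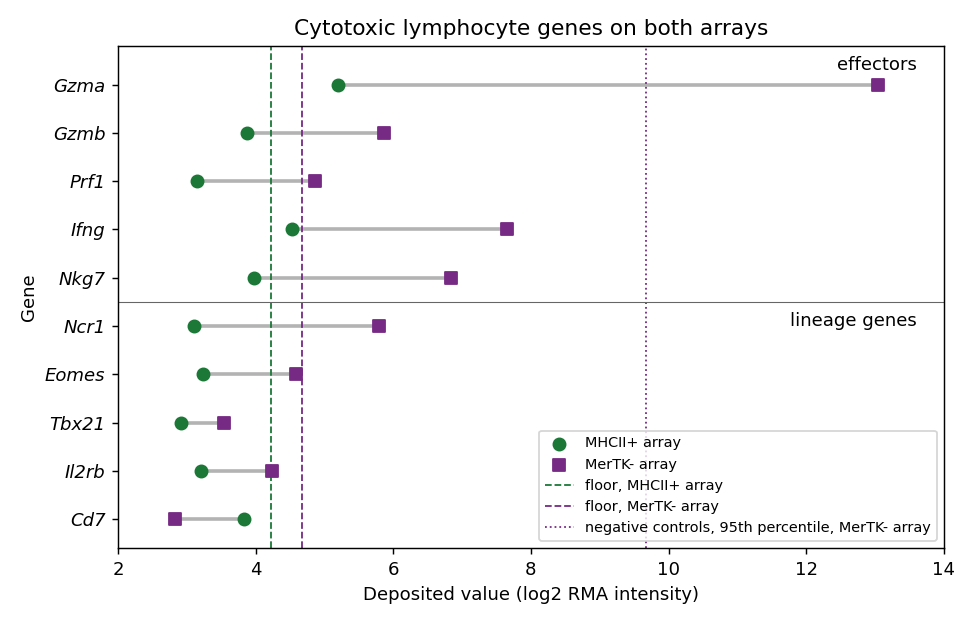
Deposited values (log2 RMA intensity, horizontal axis) of the 10 genes (vertical axis) on the MHCII+ array (green circles) and the MerTK- array (purple squares), 1 array each, with the floor of each array (dashed) and the 95th percentile of the negative controls of the MerTK- array (dotted, 9.66). Gzma in MerTK- macrophages, at 13.04, is the only value right of the dotted line, and each value of Eomes, Tbx21, Il2rb and Cd7 lies under the floor of its own array.

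Gzma, which encodes granzyme A, a trypsin-like protease of the cytotoxic granule, had a value of 5.20 in MHCII+ and 13.04 in MerTK- macrophages. The difference of -7.84 (230-fold) ranked 1 among the 10518 genes above the floor in the direction of MerTK-, and the next gene, Klra9, had -3.67. Gzma was above the floor on both arrays, by 0.97 in MHCII+ and by 8.37 in MerTK- macrophages. It was also the only member above the 95th percentile of the 5222 negative-control probe sets, which was 9.03 and 9.66, and this held in MerTK- macrophages alone. With these percentiles as the floor, the MHCII+ value of Gzma is under it and the difference of -7.84 becomes a bound of -4.01.

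Ifng, the gene of interferon-gamma, had 4.52 in MHCII+ and 7.65 in MerTK- macrophages. This 8.71-fold difference ranked 6 in the direction of MerTK- among the genes above the floor, as deposited. Its value in MHCII+ macrophages was 0.30 above the floor. In MerTK- macrophages 86.8% of the negative controls lay at or below the Ifng value, so that the others were as bright or brighter.

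Nkg7, a membrane protein of cytotoxic granules, had 3.98 in MHCII+ macrophages, under the floor, and 6.84 in MerTK- macrophages. The value was higher in MerTK- macrophages by at least 6.12-fold, and the deposited difference was -2.86. Only the MerTK- array read Nkg7 above its floor.

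Gzmb, the gene of granzyme B, a protease that activates caspases in the target cell, had 3.87 in MHCII+ and 5.86 in MerTK- macrophages and was at least 3.10-fold higher in the latter (a difference of -1.63, or -1.04 with the floor at the 99th percentile). Prf1, the gene of perforin, had 3.15 and 4.86. It passed the MerTK- floor by 0.18 and was higher in MerTK- macrophages by at least 1.55-fold, so its 3.27-fold deposited difference does not hold as a 2-fold difference against the floor. Both genes were under the floor in MHCII+ macrophages.

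The differences of the effectors spread widely. Gzma, at -7.84, stood 4.72 log2 units from Ifng, the next, and the other 4 lay between -3.12 and -1.71. The median of all 5 was -2.86, where the median over all genes above the floor was 0.15.

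Ncr1, the gene of NKp46, an activating receptor found on NK cells and some innate lymphoid cells, had 3.10 in MHCII+ and 5.79 in MerTK- macrophages. It was higher in MerTK- macrophages by at least 2.96-fold, and its deposited difference was -2.69. With the floor at the 99th percentile of the sensory receptor probe sets its difference was -0.97, under 2-fold. Ncr1 lay within the range of the effectors, between Nkg7 and Gzmb as deposited and between Gzmb and Prf1 against the floor.

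Eomes had 3.24 in MHCII+ and 4.58 in MerTK- macrophages. The MerTK- value lay at -0.09 relative to the floor of that array, just outside it, as Prf1 lay just inside. Tbx21, the gene of T-bet, had 2.91 and 3.55, and Il2rb, the receptor chain shared by IL-2 and IL-15, had 3.20 and 4.23. These 3 transcripts were not above the floor on either array, so no fold is given, although their deposited values were higher in MerTK- macrophages (differences of -1.35, -0.64 and -1.03).

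Cd7, a surface protein of T and NK cells, was the only member with a higher deposited value in MHCII+ macrophages, 3.83 against 2.82. Both values were under the floor, and 23.0% of the sensory receptor probe sets lay at or below the MerTK- value on that array.

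The deposited differences of the lineage genes not above the floor can be read beside those of the sensory receptor probe sets, whose median was -0.23 and whose middle range, from the 5th to the 95th percentile, ran from -1.10 to 0.58. Tbx21 (-0.64) and Il2rb (-1.03) lay inside this range, and Eomes (-1.35) and Cd7 (1.01) outside it. The median over the 5 lineage genes was -1.03, against -2.86 for the effectors. The first is the difference of Il2rb, under the floor on both arrays, and the second that of Nkg7, under the floor in MHCII+ macrophages. The 2 medians thus rest on values near background. As deposited the groups overlapped, since Ncr1 (-2.69) had a larger difference than Gzmb (-1.99) and Prf1 (-1.71). Against the floor Ncr1 (-1.56) still had a larger difference than Prf1 (-0.63), but not than Gzmb (-1.63).

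The stretch upstream of the transcript start is shown for the 4 members with the largest deposited differences. Whether they share regulation was not tested. RefSeq promoters (build GRCm38.p6) matched 8 of the 10 members, all but Il2rb and Cd7. The 250 bases before the start were searched on both strands for the letters of the T-box motif AGGTGTGA, of its core AGGTGT (which every match of the longer motif also holds), of RUNX, TGTGGT, of STAT, TTCNNNGAA, and of AP-1, TGANTCA. The capitals mark these matches, as read or as their reverse complement. Each stretch runs 5′ to 3′ and ends at the base before the start. They are Gzma at chr13:113100982-113101231 (minus strand), Ifng at chr10:118440796-118441045 (plus), Nkg7 at chr7:43436888-43437137 (plus) and Ncr1 at chr7:4337465-4337714 (plus), the first of its 2 start sites in the table.
Gzma: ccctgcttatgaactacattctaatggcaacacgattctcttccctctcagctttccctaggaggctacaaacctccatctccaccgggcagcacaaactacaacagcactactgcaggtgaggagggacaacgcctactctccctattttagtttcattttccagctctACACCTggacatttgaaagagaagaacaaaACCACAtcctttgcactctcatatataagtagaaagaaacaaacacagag
Ifng: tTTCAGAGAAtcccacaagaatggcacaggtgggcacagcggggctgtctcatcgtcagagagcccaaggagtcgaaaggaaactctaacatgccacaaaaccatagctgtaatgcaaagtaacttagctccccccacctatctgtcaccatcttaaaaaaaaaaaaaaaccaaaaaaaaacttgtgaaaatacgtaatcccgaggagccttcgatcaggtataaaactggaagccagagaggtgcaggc
Nkg7: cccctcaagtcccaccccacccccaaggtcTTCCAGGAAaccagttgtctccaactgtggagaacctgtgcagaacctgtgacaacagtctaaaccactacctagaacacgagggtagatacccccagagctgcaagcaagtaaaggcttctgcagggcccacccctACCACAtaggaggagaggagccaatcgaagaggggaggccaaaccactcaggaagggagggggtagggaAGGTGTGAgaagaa
Ncr1: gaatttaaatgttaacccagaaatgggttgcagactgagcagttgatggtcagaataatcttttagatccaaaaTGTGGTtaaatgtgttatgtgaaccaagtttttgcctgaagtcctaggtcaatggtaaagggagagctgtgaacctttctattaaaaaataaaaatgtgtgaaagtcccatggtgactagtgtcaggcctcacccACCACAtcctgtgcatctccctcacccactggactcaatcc

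T-box core letters were found upstream of 3 of the 8 members, Gzma, Prf1 and Nkg7, where 11.8% of all 32851 promoters of this length hold them, and the full T-box letters upstream of Nkg7 alone (1.12% of all). RUNX letters were found in 5 of 8, namely Gzma, Gzmb, Prf1, Nkg7 and Ncr1 (14% of all). STAT letters were found in Ifng and Nkg7 (7.02% of all), and AP-1 letters in Gzmb only (6.75% of all). In Gzma the core lay 80 bases and the RUNX match 50 bases before the start, each on the opposite strand and counted to the match's first printed base. Eomes and Tbx21 held none of these letters in the window. A match of letters is a description and not a bound site.

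The granule genes outside the members had smaller differences than Gzma, whose difference was the largest of all genes towards MerTK-. Of the 6 other granzymes measured, Gzmc, Gzmf, Gzmg, Gzmk, Gzmm and Gzmn, none was taken as above the floor (Gzmm, with 4.40 and 4.44, passed that of the MHCII+ array alone), and their deposited differences ran from -0.58 to 0.36. Gzmk, for example, had 2.85 in MHCII+ and 2.88 in MerTK- macrophages. The granzymes are similar in sequence, and a probe set of 1 of them may also bind RNA of another. Over all genes, 53.9% were above the floor. Of those, 6.88% were 2-fold or more higher on the MerTK- array and 13.4% on the MHCII+ array as deposited (6.00% and 11.8% against the floor). Of the whole list of other granule and death ligand genes, 7 of 14 measured were above the floor. Of these 7, 1 was 2-fold or more apart as deposited and 0 against the floor. The 1 gene was Ctsw, a cathepsin of cytotoxic cells, under the floor in MHCII+ macrophages at 3.43 and higher in MerTK- macrophages by at least 1.71-fold. Fasl, the death ligand, had 3.29 and 3.68 and was not above the floor. The median over the 7 genes above the floor was 0.08.

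Genes that move granules to the membrane were read on both arrays, and 3 of 11 were 2-fold or more higher on the MerTK- array and 1 on the MHCII+ array. The shares over all genes above the floor were 6.88% and 13.4%. Stx11, a membrane fusion protein, had 9.04 in MHCII+ and 10.70 in MerTK- macrophages (3.16-fold). Rab27a, a GTPase that docks granules, was 3.05-fold and Lyst, which shapes lysosome-related granules, 2.92-fold higher in MerTK- macrophages. Moved by the 0.93 of the hybridization controls, Stx11, Rab27a and Lyst fall under 2-fold. Vamp7 was 2.07-fold higher in MHCII+ macrophages, and the median was -0.39. Myeloid cells use these genes as well.

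Secreted products of lymphocytes were all higher in MerTK- macrophages as deposited (Xcl1, Ccl3, Ccl4, Csf2 and Lta by less than the 0.93 of the hybridization controls). Of the 6 above the floor, 3 were so by at least 2-fold, beside 6.88% of all genes above the floor. Tnf had 15.04 in MHCII+ and 16.46 in MerTK- macrophages (2.67-fold), Ltb, a lymphotoxin chain, 8.06 and 9.48 (2.66-fold), and the chemokine gene Ccl5 5.34 and 6.69 (2.55-fold). Tnf, Ltb and Ccl5 fall under 2-fold after centring on the hybridization controls. Macrophages or neutrophils make some of these products too. Xcl1, a chemokine of NK and killer T cells, had 3.93 and 4.01, and neither it nor Csf2 was above the floor.

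Of the receptors and signalling genes for IL-2, IL-12, IL-15 and IL-18, 3 of 11 above the floor were 2-fold or more higher on the MerTK- array and 1 on the MHCII+ array, with a median of -0.45. All genes above the floor had shares of 6.88% and 13.4%. Il18rap, a chain of the IL-18 receptor, had 9.24 in MHCII+ and 11.09 in MerTK- macrophages (3.62-fold). Il15ra, which presents IL-15, was 2.40-fold and the kinase gene Jak1 2.27-fold higher in MerTK- macrophages, and Il21r 2.03-fold higher in MHCII+ macrophages. Of the ligands, Il15 itself had 7.23 and 9.03, a 3.49-fold higher value in MerTK- macrophages. It was the only 1 of 3 above the floor that was 2-fold or more apart, beside 6.88% of all genes towards MerTK-. After centring on the hybridization controls, Il18rap, Il15ra, Jak1 and Il15 fall under 2-fold. Myeloid cells make IL-15 and present it to NK cells.

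The other transcription factors of the NK lineage were mostly less than 2-fold apart, as were most genes. Of 9 above the floor, 8 were less than 2-fold apart, with a median of -0.27. Among the 10518 genes above the floor, 8387 were less than 2-fold apart and 6.88% were 2-fold or more higher on the MerTK- array. A count over 9 genes says little beside these shares. Klf2, which controls how lymphocytes and macrophages travel and respond, was 2.61-fold higher in MerTK- macrophages, and under 2-fold after centring on the hybridization controls. Id2 (16.31 and 16.07) and Nfil3 (13.02 and 13.33), both needed for NK cells to form and used by many leukocytes, were less than 2-fold apart.

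Killer receptors and their adaptors went both ways. Among 12 above the floor, 5 were 2-fold or more higher on the MerTK- array and 2 on the MHCII+ array, with a median of -0.82. Over all genes above the floor these shares were 6.88% and 13.4%. Klra9 had 4.17 and 7.84 and was higher in MerTK- macrophages by at least 12.2-fold, and Klra7 had 4.96 and 7.16 (4.57-fold), although the Klra genes are so similar in sequence that cross-hybridization between them cannot be set aside. Klre1, higher in MerTK- macrophages by at least 3.42-fold, is another lectin-like receptor gene of NK cells. After centring on the hybridization controls Klre1 falls under 2-fold, while Klra9 and Klra7 do not. Klrd1, the gene of CD94, had 6.91 in MHCII+ and 4.21 in MerTK- macrophages, at least 4.71-fold in the other direction, and Slamf7, also found on macrophages, was 3.56-fold higher in MHCII+ macrophages.

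**Figure D2:**
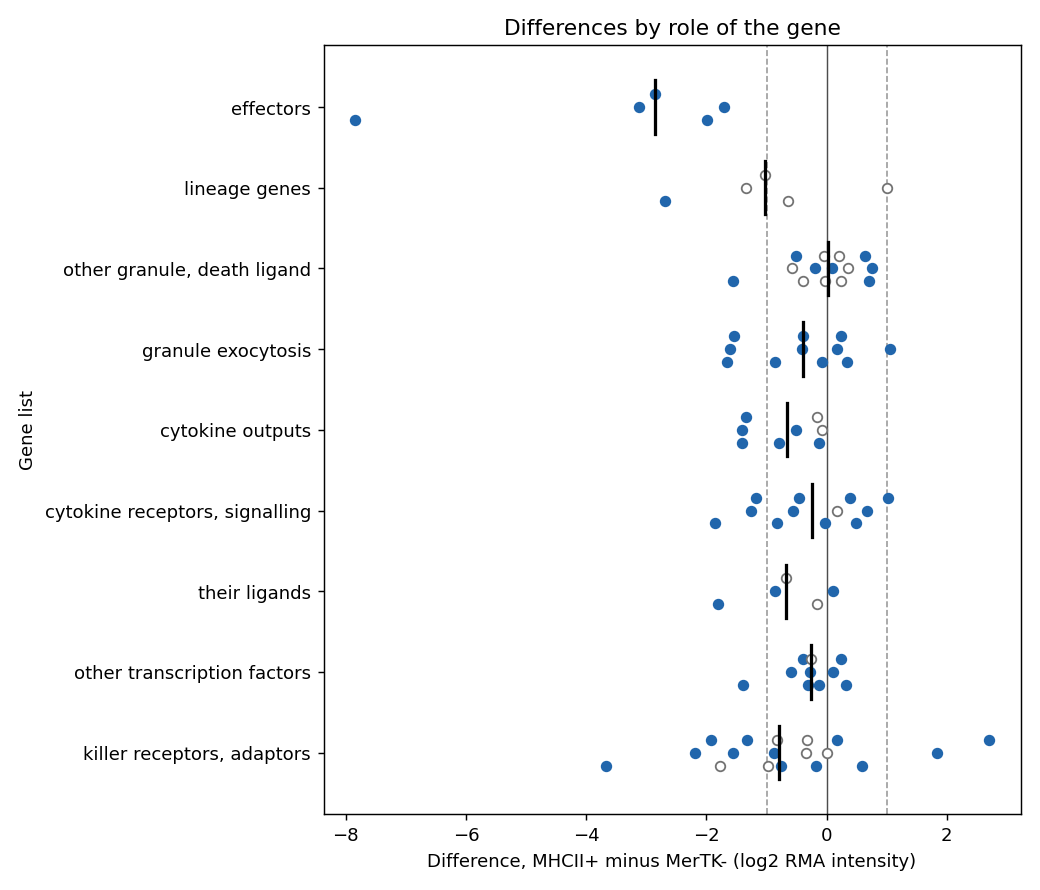
Difference between the arrays (MHCII+ minus MerTK-, log2 RMA intensity, horizontal axis) for each measured gene of 9 lists (vertical axis). Filled points are genes above the floor and hollow points those not above it, black bars are the median of all measured genes of a list, and dashed lines mark a 2-fold difference. The 5 effectors, chosen with these values known, all lie left of the dashed line at -1, with Gzma at -7.84. Medians are -2.86 for the effectors, -1.03 for the lineage genes and between -0.79 and 0.03 for the 7 lists of other genes. Single genes of those 7 lists run from -3.67 (Klra9) to 2.70 (Klrd1).

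NK cell markers outside the members were mostly higher on the MerTK- array as deposited. Of the 7 measured NK cell markers that are not members, 5 were above the floor. Of these, 4 were 2-fold or more higher on the MerTK- array (3 against the floor), beside 6.88% of all genes above the floor. They were Klre1, Klrb1c (5.11 and 6.44), Itga2 (3.34 and 4.79) and S1pr5 (4.92 and 6.26), and Klrk1 (6.63 and 6.05) was higher in MHCII+ macrophages by less than 2-fold. Klre1 and Itga2 were under the floor in MHCII+ macrophages, and Itga2 was higher by at least 1.48-fold only. Moved by the 0.93 of the hybridization controls, each of the 4 falls under 2-fold. Khdc1a and Xcl1 were not above the floor, and Klrd1, higher in MHCII+ macrophages, is not on this list. The mean value over the 7 markers that are not members was 4.57 in MHCII+ and 5.36 in MerTK- macrophages. Over all 13 measured NK cell markers it was 4.14 and 5.91, but 6 of these are members chosen with their values known.

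T cell markers were mostly not above the floor. Of 13 measured, 4 were, beside 53.9% of all genes. None of these 4 was 2-fold apart. Over all genes above the floor, 6.88% were so towards MerTK- and 13.4% towards MHCII+, so a count over 4 genes says little. Cd3e, a chain of the T cell receptor complex, had 3.81 and 4.30. It was not above the floor, and neither were Cd3g, Zap70 and both chains of CD8, the co-receptor of killer T cells (Cd8a and Cd8b1). Cd3d passed it by little, with 4.46 and 4.78. The mean over the list was 3.88 in MHCII+ and 4.0 in MerTK- macrophages.

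B cell markers leaned to MHCII+ macrophages, with 4 of 5 above the floor at least 2-fold higher there as deposited and 0 against the floor. Over all genes above the floor these shares were 13.4% and 11.8%. Of 6 markers of gamma delta T cells and innate lymphoid cells above the floor, 2 were 2-fold or more higher on the MHCII+ array, beside 13.4% of all genes. They were Tmem176a (4.44-fold) and Il7r (3.29-fold), which macrophages and dendritic cells can also use. Mast cells and plasmacytoid dendritic cells can hold granzyme B. Of 10 mast cell and basophil markers, 3 were above the floor, beside 53.9% of all genes. Kit (4.75 and 4.38) and Tpsb2 (4.35 and 4.26) passed that of the MHCII+ array alone, and Hdc, which neutrophils use as well, was 2.46-fold higher in MerTK- macrophages. Cpa3, Mcpt8, Fcer1a and Cma1 were among the 7 not above the floor. Of 8 markers of plasmacytoid dendritic cells, 4 were above the floor, beside the same 53.9% of all genes, and went both ways. Cox6a2 (5.04 and 6.14) was 2.15-fold higher in MerTK- and Tcf4 2.09-fold higher in MHCII+ macrophages, and Siglech had 5.56 and 4.63. Hdc and Cox6a2 fall under 2-fold after centring on the hybridization controls.

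Neutrophil markers moved in the same direction as the effectors. Of 12 above the floor, all 12 were 2-fold or more higher on the MerTK- array as deposited and 10 against the floor. The shares over all genes above the floor were 6.88% and 6.00%. Moved by the 0.93 of the hybridization controls, only Ngp, Wfdc21 and Mmp9 stay 2-fold or more higher there. The mean over the 14 measured was 11.2 in MHCII+ and 12.8 in MerTK- macrophages. Ngp, a granule protein, was 11.6-fold and Wfdc21 6.70-fold higher. Camp and Mpo were not above the floor. Of the 5 largest folds towards MerTK- over the genes above the floor, Gzma and Klra9 are genes of cytotoxic lymphocytes and Ngp and Pglyrp1 (10.0-fold) genes of neutrophil granules. Pglyrp1 is not on the neutrophil marker list used here, and Grina (9.15-fold) is on none of the lists. The part of NK cells, neutrophils or a change within the macrophages in the values of the members was not tested.

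**Figure D3:**
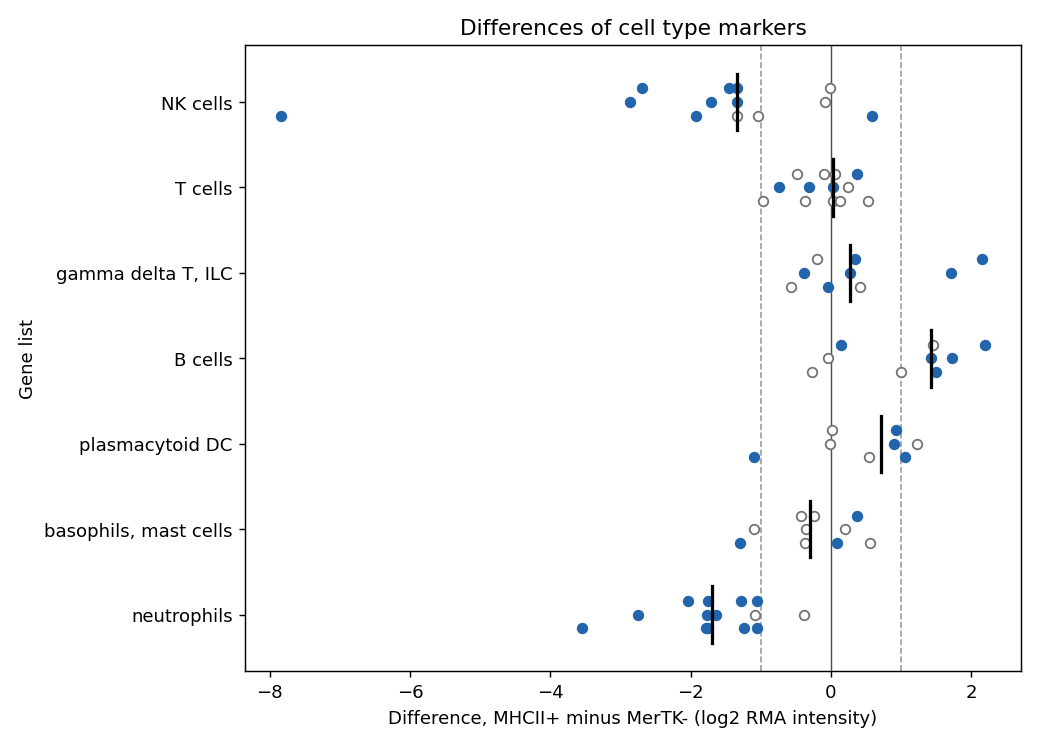
Difference between the arrays (MHCII+ minus MerTK-, log2 RMA intensity, horizontal axis) for each measured marker of 7 cell types (vertical axis), with filled points above the floor, hollow points not above it, black bars at the median of all measured markers and dashed lines at a 2-fold difference. Markers of NK cells (13 measured, 6 of them members) and neutrophils (14 measured) lie mostly left of 0, and those of T cells (13 measured) lie within 2-fold on both sides.

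No scaling changed the direction of the 6 members above the floor. The centrings could not have done so, because the largest shift towards MHCII+, 0.93, is smaller than the smallest of these differences (Prf1, -1.71). Their direction after scaling is therefore no check, and the members were chosen with these values known. After centring on the hybridization controls, which moved every difference by 0.93 towards MHCII+, Gzma, Ifng, Nkg7, Gzmb and Ncr1 were still 2-fold or more higher on the MerTK- array, while Prf1 fell under 2-fold and Tbx21 turned to 0.30.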

How the data were processed

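RNA of MHCII+ and MerTK- macrophages from mouse hearts after IR was hybridized to 1 Clariom S array each (per the probe set names; another mouse array is named in the series description). The deposited values are log2 intensities that the authors normalized by the RMA algorithm with default settings and global scaling, and Affymetrix Expression Console is the tool given in the submitters' processing notes. They ran from 0.89 to 19.8, and 337 and 331 probe sets exceeded 16, the log2 of the largest value of a 16-bit scanner, so values were moved after the scan and folds hold on the deposited scale only. No scaling was added. Of 22206 transcript probe sets, 19572 carried 1 gene symbol, which was the same in the NCBI table of GRCm38.p6, and 2634 are unnamed here. No build comes with the values. Where a gene had several probe sets (55 genes), the one with the highest mean was taken. Genes with 1 array per group were counted from a fold of 2, the threshold of the study's methods, and no test was run. Promoter sequences are from RefSeq, and promoters on opposite strands that overlap, 1493 pairs, all matched as reverse complements. Protein sequences were not used here.

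The members, lists, floor and alternatives were chosen with earlier results of these data known. The genes named are all members, up to 3 genes a direction of each pathway list and up to 2 of each marker list with the largest fold among those at least 2-fold apart, the 5 largest folds towards MerTK-, Mertk and H2-Aa. Others, such as genes not above the floor, were named after their values were seen. Lists of dendritic cells, monocytes, resident macrophages and MHC class II were counted, and 3, 0, 12 and 7 of their genes above the floor were 2-fold or more higher on the MHCII+ array and 1, 2, 0 and 0 on the MerTK- array. The number of arrays limits precision. Calculations were checked on values with known differences. Python 3.11.15, numpy 2.4.6 and pandas 2.3.3 were used.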

Additional observations from a re-analysis of the deposited data

How the results depend on the processing

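With 1 array per population no replicate could be left out. After centring on the median gene, on housekeeping genes (median difference 0.41), on hybridization controls and after quantile normalization, the effector median was -3.01, -3.28, -1.93 and -2.95, and the lineage median -1.18, -1.45, -0.099 and -0.91. Effectors 2-fold or more higher on the MerTK- array numbered 4 with hybridization controls and 5 otherwise, and lineage genes 1 throughout. All genes 2-fold or more higher on the MerTK- and on the MHCII+ array were 1756 and 604 with housekeeping genes and 70 and 5777 with hybridization controls.

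With values raised to the floor the effector median was -2.61, and with the floor at the 99th percentile it was -2.42, with 0 lineage genes 2-fold or more higher on the MerTK- array (Ncr1 was lost, at -0.97). With the floor from negative controls 1 effector (Gzma, at least 4.01 log2 units apart) and 0 lineage genes were left, and 291 and 330 of all genes, since a higher floor leaves fewer genes. A lineage median was not computed for these floors, with 1 or no gene above them, nor an effector median for the last. Without a filter 3 lineage genes were 2-fold or more higher on the MerTK- array. The mean of probe sets changed no member. What caused the differences between scalings was not tested. Signal close to background limits every member, and of Gzma the MHCII+ value and so the fold.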
